A study of Mus musculus with 10 samples.

Results

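The core loop of the circadian clock was followed in whole mouse hearts after treadmill training. It was taken as 10 genes of the 56748 in the count tables, namely the activators Bmal1, Clock and Npas2 and the repressors Per1, Per2, Per3, Cry1, Cry2, Nr1d1 and Nr1d2. The members were chosen by name, through their GENCODE identifiers, with the result of this comparison already known, so every value and fold change given for them is a description with no p-value of its own. Counts of members past a threshold restate that choice and support nothing. All 10 passed the filter on low counts.

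RNA sequencing of 10 hearts was compared between 5 Exercise mice and 5 Sedentary mice, all male wild-type C57BL/6 animals that were 8 weeks old when they entered the protocol. Exercise mice ran on a treadmill at 15 m/min for 120 min per day, 5 days per week, for 8 weeks, after a resting period and an acclimatization. Running took place during the day, always at the same hour. The paper names stress and circadian disruption as possible confounders of forced training that its setting cannot entirely exclude. It also describes a PET/CT scan under anesthesia for training and sedentary animals before hearts were harvested. Sedentary mice did not train and served as controls. Each library came from 1 heart with both atria and the ventricles. The hour of harvest is not given in the sources used here, so the phase of the clock, its amplitude and its mean level cannot be told apart in these data. Because whole hearts were homogenized, fewer cells of a type and less RNA per cell cannot be told apart either.

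In nearly every cell of the body BMAL1 pairs with CLOCK or, in some tissues, with its relative NPAS2, and the pair switches on the Per, Cry and Nr1d genes through E-box elements. PER and CRY proteins return to the nucleus and block the pair, while the REV-ERB receptors encoded by Nr1d1 and Nr1d2 repress Bmal1 through ROR elements, so that Bmal1 peaks when the repressors are low. In peripheral tissues Nr1d1 usually peaks first, followed by Nr1d2 and Per3, then Per1, Per2 and Cry2, with Cry1 last, and heart muscle runs such a clock of its own.

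The elements through which the loop is closed were looked up in RefSeq promoter windows (table build GRCm38.p6), each reaching from 250 bases before to 50 bases after an annotated start, and placed in GRCm39 by exact match. Windows were found for 9 of the 10 genes, all but Per2, and numbered 13. Sites of 30 bases are shown because they name which genes carry the letters of the loop's own regulators, written 5′ to 3′ on the gene's strand with the matched letters in capitals.
Bmal1, ROR element core, chr7:112806737-112806766: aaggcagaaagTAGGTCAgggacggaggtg
Per1, E-box, chr11:68989598-68989627: gcacccaagtcCACGTGcagggatgtgtgt
Cry1, E-box, chr10:85020960-85020989: gtgccggtggtCACGTGgggtgcatgccgc
Cry1, E′-box, chr10:85020979-85021008: cacacttcagaAACGTGaggtgccggtggt
Cry2, E′-box, chr2:92264562-92264591: cacatggtgggAACGTGagggggcggagcc
Nr1d1, E′-box, chr11:98666213-98666242: gcacagatctcAACGTGccggctgctggaa
Per3, D-box, chr4:151129309-151129338: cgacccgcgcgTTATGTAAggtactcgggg
Per3, D-box, chr4:151129262-151129291: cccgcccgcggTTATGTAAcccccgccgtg

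Both strands were searched for 5 sets of letters. The ROR element core TAGGTCA, which REV-ERB and ROR receptors bind, was found in the windows of 1 core loop gene, Bmal1, beginning 31 bases after a start, and in 2.61% of all 32851 windows. The E-box CACGTG was found for Per1, beginning 166 bases before the start, and for Cry1, at 60 bases before the start, and in 7.15% of all windows. Its variant CACGTT, the E′-box, was matched on the opposite strand, so that the gene's own strand reads AACGTG, for Cry1, Cry2 and Nr1d1 and lay in 4.68% of all windows. The D-box TTATGTAA, bound by DBP, TEF, HLF and the repressor NFIL3, occurred at 2 places before the Per3 start, at 205 and 158 bases, and in 0.938% of all windows. The CRE TGACGTCA was in none of the core loop windows and in 1.79% of all windows. No matches shared bases with each other, and they describe the letters of the windows alone.

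Sequencing depth was similar within the groups and lower in Exercise. Sense-strand counts per library ranged from 29461697 to 35945417 in Exercise and from 35196993 to 39431030 in Sedentary (exact two-sided permutation test, p = 0.0238, with 0.00794 the smallest p the design allows). Levels are given as CPM, read counts scaled to a common total, on library sizes scaled by the trimmed mean of M values (TMM), and fold changes as log2 values from edgeR with their standard error (SE). Counts per heart for the core loop ran from 109 for Npas2 to 6338 for Nr1d1. The tissue label fits the markers measured, since all 8 cardiomyocyte markers were detected and the atrial natriuretic peptide gene Nppa reached 1573 to 4200 CPM.

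Of the Sedentary hearts, numbers 4 and 5 stood apart in the core loop. For Bmal1, Per2, Per3, Cry2 and Nr1d2 these 2 hearts were the Sedentary hearts nearest to the Exercise range or inside it. Fold changes, paralog ratios, median correlations by kind of pair and spread are therefore given with hearts left out in turn as well, while correlations of single pairs are given with no heart left out.

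All 3 activators were lower in Exercise and 4 of the 7 repressors were higher at a false discovery rate (FDR) of 0.1, with 7 members past that threshold in edgeR. Across the 15454 genes tested, 7.01% passed the same threshold, 2.75% higher and 4.26% lower in Exercise. The groups did not overlap for 6 members, Bmal1, Clock, Per3, Cry1, Cry2 and Nr1d2, compared with 5.06% of all genes tested. Of these, 4 were higher (background 2.12%) and 2 lower (background 2.94%). In TPM, a length-corrected measure described below, 3 members did not overlap, Per3, Cry2 and Nr1d2. Since the genes were picked with this comparison in view, nothing is read from these shares.

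Bmal1 (ENSMUSG00000055116; GRCm39 chr7:112806152-112914735, plus strand), which encodes the partner that both CLOCK and NPAS2 need, showed the largest difference in the loop. Its CPM in Exercise hearts 1 to 5 were 6.74, 8.42, 8.67, 7.31 and 5.67. In Sedentary hearts 1 to 5 its CPM were 23.3, 19.7, 19.3, 8.82 and 13.1. Every Exercise heart lay below every Sedentary heart, but the gap between the highest Exercise heart (8.67) and Sedentary heart 4 (8.82) was narrow. In TPM the groups overlapped, Sedentary heart 4 at 3.12 lying below Exercise hearts 2 and 3 at 3.24 and 3.40. Mean levels were 7.36 ± 1.23 CPM in Exercise and 16.8 ± 5.80 CPM in Sedentary (SD, n = 5 each), a ratio of 0.437 and a log2 fold change of -1.19 (SE 0.21).

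Clock (ENSMUSG00000029238; chr5:76342860-76452846, minus strand) encodes the partner of BMAL1 that also carries histone acetyltransferase activity, and it moved less. Exercise hearts 1 to 5 held 52.9, 52.7, 53.6, 56.5 and 56.3 CPM. Sedentary hearts 1 to 5 held 72.6, 68.1, 70.3, 58.7 and 65.0 CPM. The groups did not overlap, heart 4 again being the lowest of the Sedentary hearts, and the log2 fold change was -0.30 (SE 0.05).

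Npas2 (ENSMUSG00000026077; chr1:39232705-39402323, plus strand), whose product can replace CLOCK, was the least abundant member. Its CPM were 3.09, 3.72, 4.07, 3.89 and 3.68 in Exercise hearts 1 to 5. In Sedentary hearts 1 to 5 its CPM were 5.44, 6.22, 5.54, 3.87 and 4.41. Sedentary heart 4 fell inside the Exercise range, so the groups overlapped, with a log2 fold change of -0.47 (SE 0.13).

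**Figure D1:**
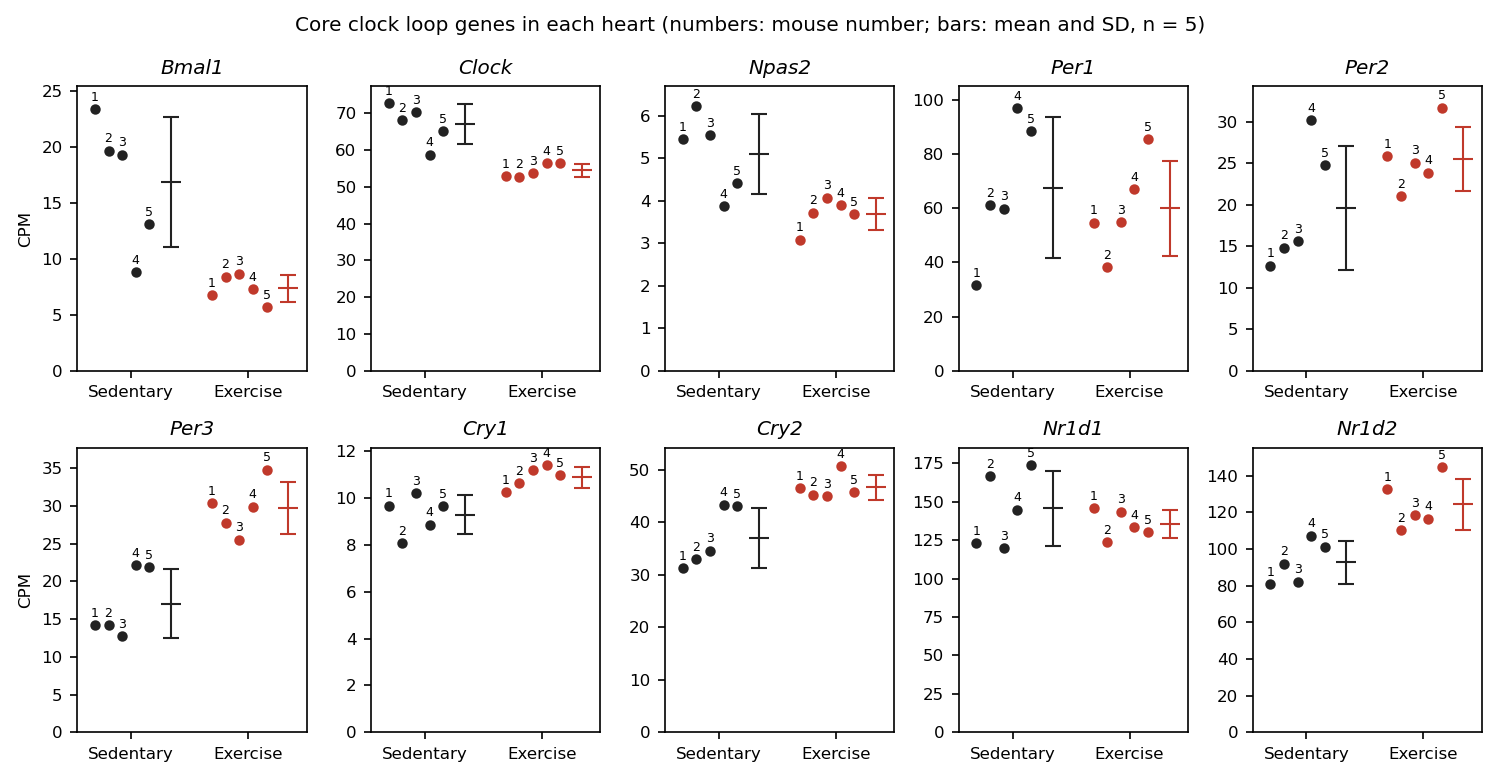
CPM of the 10 core loop genes in each heart, 1 panel per gene with a linear axis from 0. Points are hearts labelled by mouse number, and the bar beside them is the mean with the SD (n = 5). Bmal1 and Clock lay lower and Per3, Cry1, Cry2 and Nr1d2 higher in all Exercise hearts, while Per1, Per2, Nr1d1 and Npas2 overlapped.

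Among the Period genes, whose proteins form the core of the complex that inhibits CLOCK and BMAL1, the values of the paralogs differed. Per3 (ENSMUSG00000028957; chr4:151081373-151129140, minus strand) had 30.3, 27.7, 25.5, 29.9 and 34.8 CPM in Exercise hearts 1 to 5. Sedentary hearts 1 to 5 had 14.2, 14.2, 12.7, 22.1 and 21.9 CPM of Per3. All Exercise hearts were above all Sedentary hearts, with means of 29.7 ± 3.45 and 17.0 ± 4.58 CPM, a ratio of 1.74 and a log2 fold change of 0.80 (SE 0.15). It had the largest difference among the repressors and is the gene whose window holds both D-boxes shown above.

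Per2 (ENSMUSG00000055866; chr1:91343700-91387069, minus strand), needed for a persistent rhythm, had 25.9, 21.1, 25.1, 23.9 and 31.7 CPM in Exercise hearts 1 to 5. Sedentary hearts 1 to 5 had 12.7, 14.8, 15.7, 30.2 and 24.8 CPM. Sedentary hearts 1, 2 and 3 were below the whole Exercise group, whereas hearts 4 and 5 were inside it, and the log2 fold change of 0.38 (SE 0.20) was not past the threshold.

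Per1 (ENSMUSG00000020893; chr11:68986035-69002300, plus strand), the Period gene that also answers to acute signals such as glucocorticoids and cyclic AMP, ranged from 38.1 to 85.4 CPM in Exercise. Exercise hearts 1 to 5 had 54.7, 38.1, 54.7, 67.0 and 85.4 CPM and Sedentary hearts 31.7, 61.1, 59.8, 96.7 and 88.5 CPM. The lowest and the highest hearts were both Sedentary, hearts 1 and 4, so that the Sedentary range enclosed the Exercise range. The log2 fold change was -0.17 (SE 0.25).

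Both cryptochrome genes, which encode the strongest inhibitors of CLOCK and BMAL1, were higher in Exercise by small amounts. Cry2 (ENSMUSG00000068742; chr2:92233894-92264474, minus strand) had 46.5, 45.2, 44.9, 50.6 and 45.7 CPM in Exercise hearts 1 to 5 against 31.2, 33.0, 34.6, 43.3 and 43.0 CPM in Sedentary hearts. Sedentary hearts 4 and 5 came within a few CPM of the Exercise group without entering it, and the log2 fold change was 0.33 (SE 0.09). Cry1 (ENSMUSG00000020038; chr10:84967560-85021252, minus strand) had 10.2, 10.6, 11.2, 11.4 and 10.9 CPM in Exercise against 9.66, 8.06, 10.2, 8.85 and 9.64 CPM in Sedentary hearts. For Cry1 Exercise heart 1 exceeded Sedentary heart 3 by less than the rounding shows, and the log2 fold change was 0.23 (SE 0.07). Here the highest Sedentary hearts were numbers 3 and 1, not 4 and 5.

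Values differed between the REV-ERB genes too. Nr1d2 (ENSMUSG00000021775; chr14:4230545-4266624, plus strand), which encodes REV-ERBβ, had 133, 110, 118, 117 and 145 CPM in Exercise hearts 1 to 5 against 80.9, 92.0, 82.2, 107 and 101 CPM in Sedentary hearts. The groups did not overlap, and the log2 fold change was 0.43 (SE 0.09). Nr1d1 (ENSMUSG00000020889; chr11:98658752-98666188, minus strand), which encodes REV-ERBα, had 146, 124, 144, 133 and 130 CPM in Exercise against 123, 166, 120, 145 and 174 CPM in Sedentary hearts. Its Exercise hearts lay inside the Sedentary range, with a log2 fold change of -0.11 (SE 0.09).

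Nr1d1 overlaps Thra, which encodes the thyroid hormone receptor α, on the opposite strand. Of the reads counted for Nr1d1 on either strand, 94.6% were sense, compared with 99.55% for Npas2, the lowest of the other members, so CPM and fold changes are from sense counts unless another measure is named. The log2 fold change of Nr1d1 was -0.12 with counts of both strands and -0.10 with RSEM expected counts.

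**Figure D2:**
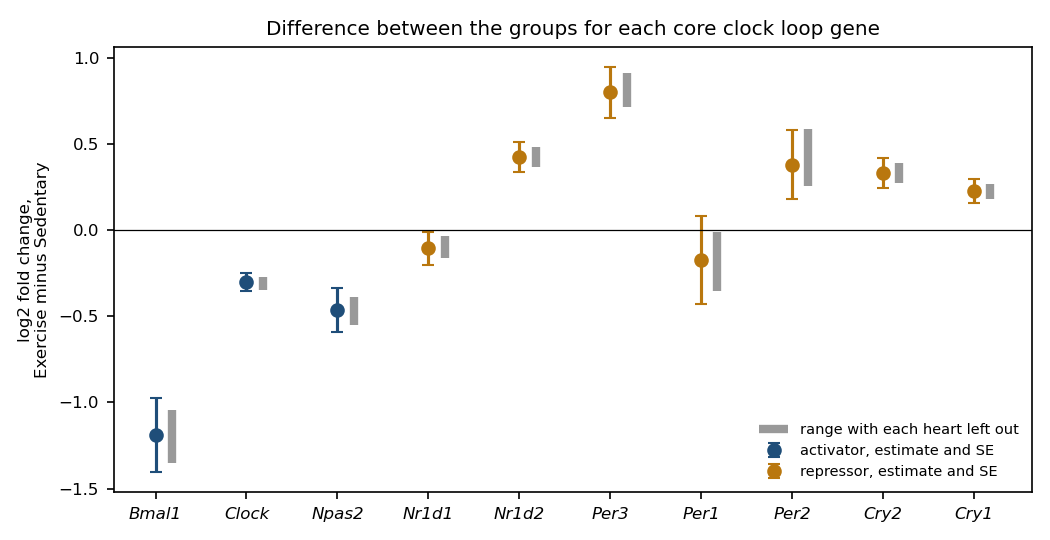
Log2 fold change (Exercise minus Sedentary) of each core loop gene from edgeR, with activators in blue and repressors in orange in the textbook order of their peaks. Points with bars are estimates with SE (n = 5 hearts each), and grey bars span the 10 fits that each leave out 1 heart. All 3 activators lay below 0 and 5 of 7 repressors above it, with Nr1d1 and Per1 below 0.

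The repressor values are read here in the textbook order of peaks. The first, Nr1d1, differed by -0.11, the next, Nr1d2 and Per3, by 0.43 and 0.80, then Per1 by -0.17, Per2 by 0.38 and Cry2 by 0.33, and the last, Cry1, by 0.23, all as log2 fold changes. With single hearts left out Nr1d1 lay between -0.16 and -0.03 and Per1 between -0.35 and -0.0077, both within reach of 0 given their SE, so no order in time is read from them. Within the Per and Nr1d families some paralogs had estimates of opposite sign, and the ratio of paralogs was examined in each heart as a quantity that does not depend on library scaling.

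The ratio of Nr1d1 to Nr1d2 CPM, which compares hearts and not the abundance of the genes, was 1.10, 1.12, 1.21, 1.14 and 0.898 in Exercise hearts 1 to 5. In Sedentary hearts 1 to 5 it was 1.52, 1.81, 1.46, 1.35 and 1.71. The groups did not overlap, and here Sedentary heart 5 lay among the hearts farthest from Exercise, unlike in Bmal1. The ratio of Per1 to Per3 was 2.00 ± 0.42 in Exercise and 3.93 ± 0.97 in Sedentary (SD, n = 5 each). The groups overlapped, Sedentary heart 1 at 2.237 lying below Exercise hearts 4 and 5 at 2.241 and 2.456. The ratio of Bmal1 to Per3 was 0.255 ± 0.069 in Exercise and 1.11 ± 0.57 in Sedentary, ranging from 0.163 to 0.340 and from 0.399 to 1.65. With single hearts left out, the group difference lay between -0.53 and -0.42 for Nr1d1 to Nr1d2, between -2.35 and -1.74 for Per1 to Per3, where the overlap ended without Sedentary heart 1, and between -1.03 and -0.72 for Bmal1 to Per3.

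To order the hearts, log2 CPM of each gene was centred on the mean of the 10 hearts and averaged over the 3 activators and over the 7 repressors. The activator level was -0.31 ± 0.11 in Exercise and 0.31 ± 0.31 in Sedentary (SD, n = 5 each), and the groups did not overlap. The repressor level was 0.15 ± 0.13 in Exercise and -0.15 ± 0.28 in Sedentary, and Sedentary hearts 4 and 5, at 0.16 and 0.14, lay inside the Exercise range.

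By activators minus repressors, the hearts ran from Sedentary heart 1 at 1.06 through Sedentary hearts 2 and 3, both at 0.77, to Sedentary heart 5 at 0.0041. Then came Exercise hearts 2 and 3 at -0.21 and -0.29, Sedentary heart 4 at -0.32, and Exercise hearts 4, 1 and 5 at -0.44, -0.61 and -0.74. Sedentary heart 4 was thus the 1 heart out of group order. The group difference was -0.92 on the log2 scale and lay between -1.11, without Sedentary heart 4, and -0.77, without Sedentary heart 1, when hearts were left out.

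**Figure D3:**
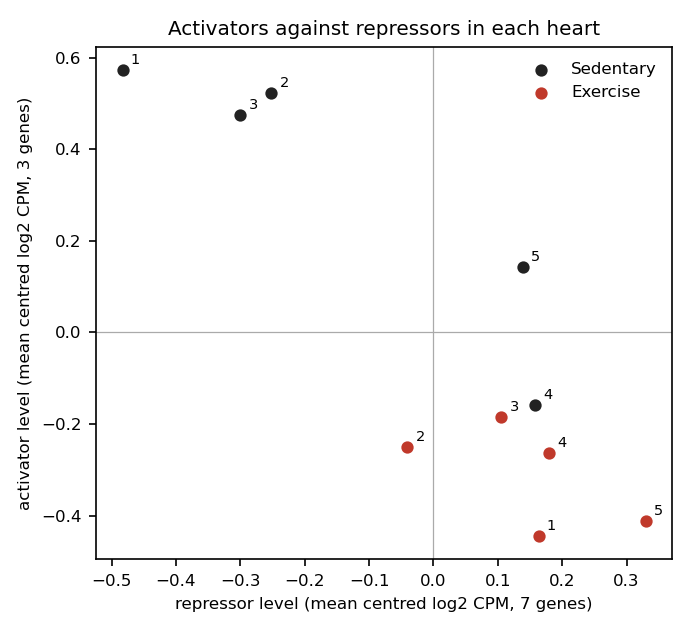
Mean centred log2 CPM of the 3 activators (vertical axis) against that of the 7 repressors (horizontal axis) in each heart, labelled by mouse number. Sedentary hearts 1, 2 and 3 sit at high activator and low repressor levels, Exercise hearts at low activator levels, and Sedentary hearts 4 and 5 between them or beside the Exercise hearts.

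Sedentary hearts 4 and 5 resembled the Exercise hearts in some members and not in others. They had the 2 highest Per1 levels of the 10 hearts, at 96.7 and 88.5 CPM, and Sedentary heart 5 had the highest Nr1d1 level, at 174 CPM. Ciart, a clock-driven repressor that was not among the members and was picked after its values were seen, was also highest in these 2 hearts, at 11.5 and 11.8 CPM, against 4.09 to 9.32 CPM in Exercise. In Per3 and Nr1d2, by contrast, both hearts stayed below all Exercise hearts. By these genes, which were singled out by their values, the hearts did not fall on a single line from Sedentary to Exercise.

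**Figure D4:**
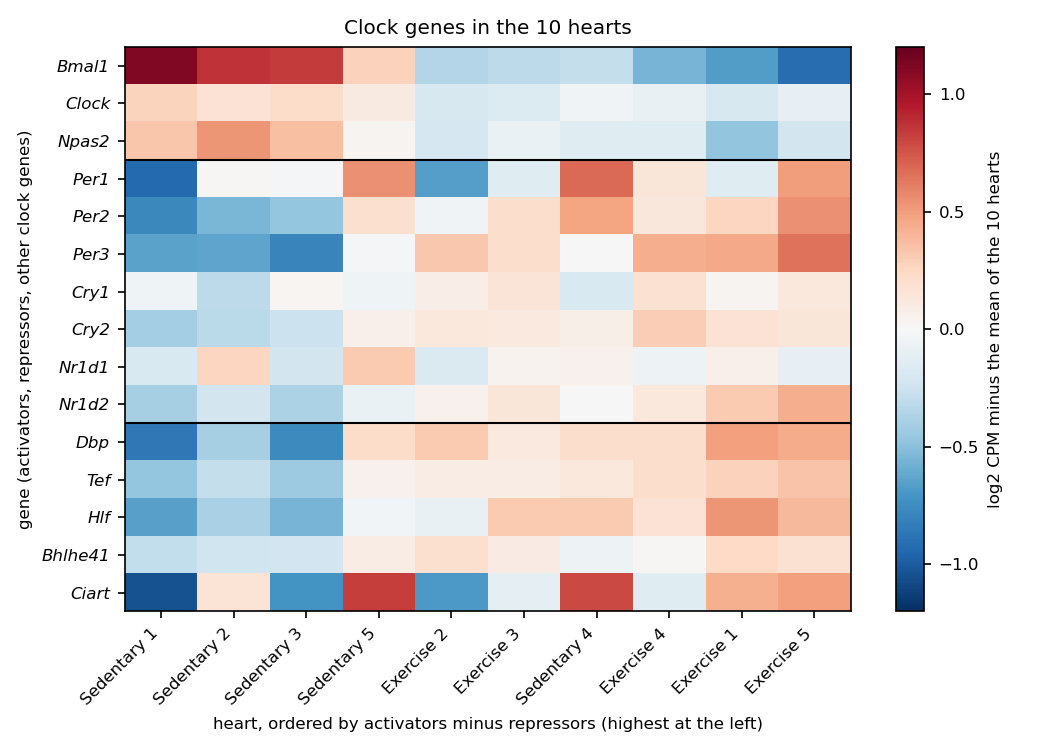
Log2 CPM minus the mean of the 10 hearts for the core loop and 5 other clock genes (rows), with hearts in columns ordered by activators minus repressors. Red is higher and blue lower than the mean. Sedentary hearts 1, 2 and 3 are high in Bmal1 and low in Per3, Nr1d2, Dbp and Tef, and Sedentary hearts 5 and 4 are high in Per1 and Ciart.

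How the members varied together among hearts of a group was examined next. Pearson's r between deviations from the group mean of log2 CPM over the 10 hearts is given as a description, since the points share their libraries and scaling, each group has 5 hearts and the wider Sedentary spread weighs most. The 3 activator pairs had r of 0.75 to 0.82 over the 10 hearts, and their median of 0.75 fell to 0.47 without Sedentary heart 4. Of the 21 pairs of an activator with a repressor, 18 were below 0, with a median of -0.66, and the 3 above 0 all involved Cry1. With single hearts left out, chosen as an alternative after the data were seen, the median of these 21 pairs lay between -0.76 and -0.49.

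The groups differed in this pattern with no heart left out, a difference that was not tested. In Sedentary 19 of the 21 pairs of an activator with a repressor were below 0, with a median of -0.87, and in Exercise 10 of 21, with a median of 0.04. Bmal1 and Clock had r of 0.98 in Sedentary and -0.56 in Exercise. Clock varied little among the Exercise hearts (SD of log2 CPM 0.05, against 0.12 in Sedentary), so nothing is read from its r in Exercise. There Clock had r above 0 with every repressor but Nr1d1, so the Exercise count of 10 of 21 and its median rest in part on these pairs. Against Per3, Per2, Nr1d2 and Per1 Bmal1 was opposite in both groups. For Bmal1 with Per3, r was -0.97 in Exercise and -0.89 in Sedentary. For Bmal1 with Per2 it was -0.84 and -0.98, and with Nr1d2 -0.91 and -0.92. With Cry2 it was -0.15 in Exercise and -0.94 in Sedentary. Cry2 also varied little among the Exercise hearts (SD of log2 CPM 0.07, against 0.22 in Sedentary), so nothing is read from its r in Exercise.

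Over the 10 hearts Bmal1 ran least closely against Nr1d1 (r = -0.33), the gene for its own repressor, and Cry1 (r = 0.17). Per2 and Per3 went together at r = 0.89 and Per1 and Per2 at r = 0.87. Cry1 was apart from its own family too, with r = 0.07 to Cry2. The clock output factors TEF, HLF and DBP, which bind D-boxes, had r of -0.95, -0.89 and -0.88 with Bmal1. Among the other output factors Ciart, Klf15, Klf9, Bhlhe41 and Bhlhe40 had r of -0.83, -0.82, -0.73, -0.67 and -0.57. Nfil3, whose product binds D-boxes as a repressor, had r of 0.34 and Klf10 0.39.

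By the same measure among 12928 genes outside the lists with a mean of at least 1 CPM, the genes most like Bmal1 were Arhgdib (r = 0.97), the glycolytic regulator Pfkfb4 (r = 0.95), the lymphocyte adaptor Dapp1 (r = 0.95), the anticoagulant protein S gene Pros1 (r = 0.95) and Bin2 (r = 0.94). The most opposite were the splicing factor Srsf2 (r = -0.94), Atf7 (r = -0.94), Ssb (r = -0.94), the noncoding Rab10os (r = -0.94) and the potassium channel gene Kcnj12 (r = -0.93). In all, 1.17% of these genes reached r of 0.8 and 0.874% reached -0.8. Between the groups none of the 5 genes most like Bmal1 was past the threshold in edgeR, their adjusted p lying between 0.152 and 0.856. Of the 5 most opposite, Ssb, the gene of the RNA-binding La protein, was lower in Exercise without overlap of the groups (edgeR adjusted p = 0.0899), and the other 4 did not pass.

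The spread between hearts of a group was larger in Sedentary for all 10 members, compared with 49.2% of the 13117 genes of at least 1 CPM. For Bmal1 the SD of log2 CPM was 0.25 in Exercise and 0.56 in Sedentary, the latter at the 99.2 percentile of all genes. Per2 had an SD of 0.21 in Exercise and 0.53 in Sedentary, and Per1 0.43 and 0.63. Clock, with 0.05 and 0.12, and Cry1, with 0.06 and 0.13, varied least. Over the core loop the median SD was 0.15 in Exercise and 0.26 in Sedentary, against 0.10 in both groups over all genes, and the difference in spread was not tested. With single hearts left out, 9 or 10 members had the larger SD in Sedentary, the exceptions being Per1 without Sedentary heart 1 and Nr1d2 without Sedentary heart 4, and the Sedentary SD of Bmal1 fell to 0.35 without Sedentary heart 4.

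**Figure D5:**
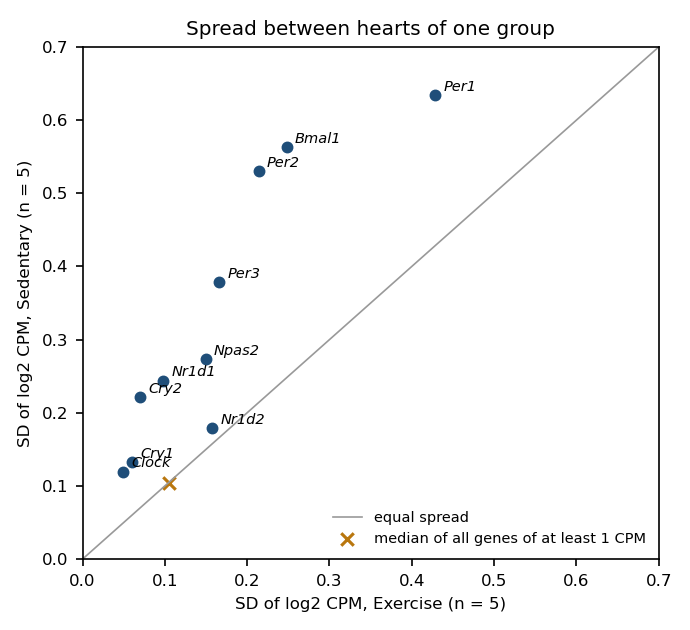
SD of log2 CPM among the 5 Sedentary hearts (vertical axis) against that among the 5 Exercise hearts (horizontal axis) for each core loop gene. The line marks equal spread and the cross the median of all genes of at least 1 CPM. All 10 genes lie above the line, Per1, Bmal1 and Per2 highest.

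On the length-corrected scale of TPM (transcripts scaled by length and to a common total) from RSEM, which allows genes to be compared, levels followed the sense strand: over 603 genes with nearly all reads on the other strand, the median ratio of expected counts to those reads was 0.0020. Nr1d1 was the most abundant member in both groups, at 55.7 ± 3.43 in Exercise and 55.8 ± 7.43 in Sedentary. Nr1d2 followed at 36.1 ± 5.02 and 26.0 ± 2.45 TPM, then Per1 at 14.0 and 14.7, Cry2 at 13.0 and 9.69, and Clock at 7.35 and 8.54. The ranges of Per1 and Cry2 overlapped in both groups. Bmal1 was ninth of the 10 in Exercise at 2.83 ± 0.49 TPM and sixth in Sedentary at 6.25 ± 2.35 TPM, where its range overlapped those of Clock above and Cry1 below it. In Exercise the order ended with Per3 at 5.93, Per2 at 4.56, Cry1 at 4.54, Bmal1 and Npas2 at 1.12 TPM, and the ranges from Clock down to Cry1 overlapped from neighbour to neighbour. In Sedentary Cry1, Per2 and Per3, at 3.48, 3.28 and 3.11 TPM, overlapped and Npas2, at 1.46 TPM, was last.

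Outside the core loop, 67 other clock genes were tested, and 5 were higher and 4 lower in Exercise past the FDR of 0.1, against the 2.75% higher and 4.26% lower of all genes tested, with a median log2 fold change of 0.02 against 0.00 over all genes. Of the 10 output transcription factors, Tef rose from 158 ± 30.7 to 207 ± 16.1 CPM (log2 fold change 0.39, SE 0.11, edgeR adjusted p = 0.0649). The repressor gene Bhlhe41 rose by 0.29 on the log2 scale (SE 0.07, edgeR adjusted p = 0.0448). Dbp and Hlf, named after their values were seen, had log2 fold changes of 0.57 (SE 0.19) and 0.50 (SE 0.16) that did not pass (edgeR adjusted p = 0.113 each).

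The receptor gene Rora, an activator of Bmal1 that binds the same ROR element as the REV-ERBs, rose by 0.23 on the log2 scale (SE 0.07, edgeR adjusted p = 0.0666) while Bmal1 was lower. Nampt, the NAD-producing enzyme that BMAL1 drives, rose by 0.21 (SE 0.06, edgeR adjusted p = 0.0620). The REV-ERB co-repressor gene Ncor1 fell by 0.15 (SE 0.05, edgeR adjusted p = 0.0957). Of 20 genes for kinases, ubiquitin ligases and deubiquitinases known to act on clock proteins, none passed in edgeR or DESeq2, and 1 had an unadjusted p below 0.05. Of all genes tested 7.01% passed in edgeR, so nothing is read from none of 20. Among genes listed as tissue outputs, Tspan4 rose by 0.39 and Leo1 and Pik3r1 fell by 0.45 and 0.42 (edgeR adjusted p = 0.00702, 0.0173 and 0.0153).

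Tef, Rora, Nampt, Ncor1 and Bhlhe41 passed in 5, 4, 6, 1 and 8 of the 10 fits that left out a heart, and none of them passed without Sedentary heart 2 or without Sedentary heart 3. Leo1, Pik3r1 and Tspan4 passed in all 10. With the atrial markers as a covariate, a fit described below, Pik3r1 and Tspan4 passed (edgeR adjusted p = 0.0752 and 0.0972). Leo1 did not pass there (edgeR adjusted p = 0.183), nor did Tef, Rora, Nampt, Ncor1 or Bhlhe41. Of 14 glucocorticoid response genes, 6 were lower (4.26% of all genes tested were), such as Cdkn1a at 99.3 ± 6.88 against 171 ± 31.8 CPM (edgeR adjusted p = 0.00504), and 1, the receptor gene Nr3c1, which is outside the naming rule, was higher by 0.23 on the log2 scale (edgeR adjusted p = 0.0158).

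Markers of heart regions and cell types differed between the same groups. The 10 atrial markers, Nppa the most abundant and none at 0, summed to 6491, 5634, 7909, 6887 and 5296 CPM in Exercise hearts 1 to 5 and to 7084, 2945, 4831, 5062 and 2990 CPM in Sedentary hearts (exact two-sided permutation test, adjusted p = 0.159 over 10 lists), with 3 of the 10 genes past the threshold, all higher. The 7 endothelial markers, Fabp4 the most abundant and none at 0, summed to 1174, 1201, 1178, 1243 and 1217 CPM in Exercise and 1340, 1368, 1322, 1300 and 1310 CPM in Sedentary (adjusted p = 0.0397 by the same permutation test), 2 of 7 genes past the threshold, both lower.

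The 8 cardiomyocyte markers, Myh6 the most abundant and none at 0, summed to 62936, 61226, 57965, 59872 and 59513 CPM in Exercise and to 61061, 67199, 66161, 70110 and 67603 CPM in Sedentary (adjusted p = 0.0794 by the same permutation test), 1 of 8 genes past the threshold. That gene was Actc1, lower in Exercise (log2 fold change -0.38, SE 0.08), and all 8 had estimates below 0. The skeletal muscle list, 5 of whose 8 genes were tested, summed to 1903, 2295, 1861, 1845 and 1841 CPM in Exercise and to 2390, 2664, 2533, 2335 and 2417 CPM in Sedentary (adjusted p = 0.0397). Ckm and Acta1 were lower past the threshold. Its most abundant gene was Ckm, which heart muscle also expresses, and Myh1, Myh2 and Myh4, the defining myosins, stayed at or below 0.125 CPM. The summed levels of the other 6 lists, for adipocytes, erythroid cells, fibroblasts, macrophages, mural cells and nerve, had adjusted p between 0.139 and 0.635 by the same permutation test. Of the 7 fibroblast markers 2, Pdgfra and Lum, were higher past the FDR of 0.1 in edgeR and all 7 had estimates above 0. Of the 7 mural markers Tagln was higher and Rgs5 lower, and no marker of the other 4 lists passed. Estimates were above 0 for all 7 adipocyte and all 5 nerve genes tested, and below 0 for all 5 erythroid genes tested. Of the macrophage markers 2 were above 0 and 5 below. The part of these lists in the core loop values was not tested beyond the fit with the atrial markers.

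With the mean level of the atrial markers as a covariate, 58 genes in all and no core loop gene passed the FDR of 0.1 in edgeR (6 of the 10 had an unadjusted p below 0.05), with log2 fold changes of -1.24 (SE 0.27) for Bmal1, -0.31 (SE 0.07) for Clock, 0.85 (SE 0.20) for Per3, 0.47 (SE 0.12) for Nr1d2 and 0.35 (SE 0.12) for Cry2. Others came nearer to 0, Npas2 at -0.39, Cry1 at 0.16, Per2 at 0.36 and Per1 at -0.0053, and Nr1d1 changed sign to 0.066. In the fits that left out a heart, which share the hearts the members were chosen on and so show no independent stability, Bmal1, Clock, Per3 and Nr1d2 passed in all 10. Cry2 was lost without Exercise heart 4 or Sedentary heart 2 or 3, Npas2 without Exercise heart 1, 4 or 5 or Sedentary heart 2 or 3, and Cry1 passed only without Exercise heart 1, Sedentary heart 1 or Sedentary heart 3. Per2 passed only without Sedentary heart 4, at 0.59 on the log2 scale, and Per1 and Nr1d1 in none. Without Sedentary heart 4 the log2 fold changes of Bmal1 and Per3 were -1.35 and 0.91.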

How the data were processed

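Total RNA was isolated from 10 whole hearts, and libraries were made with a poly-T oligo and a directional kit. The authors aligned reads to GRCm39 with STAR 2.7.10a and estimated expression with RSEM 1.3.3. The deposited gene counts (unstranded and for each strand) and the deposited RSEM expected counts, TPM, FPKM and effective lengths were read, and FPKM was left out. Reverse-strand counts (94.9% to 95.6% of stranded counts) were the main measure, and multimapping, unassigned and ambiguous reads stayed out of library sizes. Of 56748 identifiers, 56017 matched GENCODE M39.

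Counts were filtered by expression, scaled by TMM and tested with edgeR 4.0.16 (quasi-likelihood F test, group only, Benjamini-Hochberg over 15454 genes, FDR 0.1). Log2 CPM used a prior count of 2. Alternatives included DESeq2 1.42.0, rounded expected counts, other scalings and filters, and each heart left out, for spread, ratios and correlations chosen after seeing the data. Members and lists were chosen with earlier results of these data known. Other clock and stress genes past the FDR, at most 6 per list by size of log2 fold change, were named, except 1 that is not reported here. The p-values measure spread between mice; no batch is given in the labels.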

Additional observations from a re-analysis of the deposited data

Results flagged for a closer look

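Of 96 groups of 5 hearts checked, 4 held a heart whose distance from its nearest neighbour took up more than 0.71 of the group's range, where chance alone gives about 1 in 20. Cry2 stood at 50.6 CPM in Exercise heart 4, with the other Exercise hearts between 44.9 and 46.5 CPM. Without that heart the log2 fold change of Cry2 was 0.30 (SE 0.09) against 0.33 (SE 0.09) with it, and it no longer passed the FDR of 0.1 in edgeR, as was also the case without Sedentary heart 2 or 3. The metallothionein gene Mt1 stood at 238 CPM in Sedentary heart 4, against 207 to 215 CPM in the other Sedentary hearts. The summed adipocyte markers reached 158 CPM in Sedentary heart 1, against 39.0 to 70.4 CPM in its group. The summed skeletal muscle list reached 2295 CPM in Exercise heart 2, against 1841 to 1903 CPM in its group. No explanation for these hearts was tested.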

How the results depend on the processing

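The activator minus repressor difference of -0.92 kept its sign under every alternative run for it. These were other scalings, RSEM expected counts, counts of both strands, another prior count, Per and Nr1d genes alone, and single hearts left out. With single hearts left out it lay between -1.11 and -0.77. It was not computed with the atrial covariate, the replicate block or thinned counts. The counts past FDR 0.1 moved more. With the atrial marker level as a covariate they were 58 genes in all, 0 of the core loop and 2 other clock genes. At an FDR of 0.05 they were 505, 4 and 4. Leaving out single hearts gave 512 to 1490 genes in all, 4 to 7 of the core loop (4 without Exercise heart 4 or Sedentary heart 2) and 3 to 11 other clock genes. Library totals without TMM turned the split of 425 higher and 659 lower into 1029 higher and 339 lower, with the median gene shifted by 0.05 on the log2 scale, and left 6 core loop genes called. The log2 fold change of Nr1d1 changed sign to 0.066 with the atrial covariate. The cause of these changes was not tested. The labels do not say whether mouse numbers pair the samples. Over all genes tested, correlations of same-numbered hearts were -0.097 to 0.159 and 3 of 10 hearts correlated best with their own number. Such a check over all genes cannot decide whether same-numbered hearts share something in the core loop genes, which was not tested. The replicate block, which adds mouse number to the fit, gave 1137 genes in all, 6 of the core loop and 11 other clock genes. With it the SE fell from 0.15 to 0.09 for Per3, 0.25 to 0.16 for Per1 and 0.21 to 0.16 for Bmal1. It also fell for Per2, Cry2, Nr1d2 and Npas2 and rose slightly for Clock, Cry1 and Nr1d1. Of the remaining values for core loop genes, 171 kept their direction and side of the threshold, 27 fell short of it and 1 passed it. Npas2 had the fewest counts, 109 to 219 per heart, and with counts thinned to the smallest library 6 of the core loop genes passed, Cry1 being lost.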

Other observations

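Other genes known for fast responses were measured beside the clock. Of 10 immediate early genes, none passed the FDR of 0.1 in edgeR or DESeq2. In edgeR 7.01% of all genes tested passed, so a list this short can hold none without differing from that share. In edgeR 3 of the 10 had an unadjusted p below 0.05, and their median log2 fold change was 0.03. Of 8 heat shock and cold-inducible genes, 1 was higher in Exercise, against 2.75% of all genes tested. It was the chaperone gene Hspa1a, at 3.70 ± 1.61 against 2.10 ± 0.54 CPM (SD, n = 5 each; edgeR adjusted p = 0.0968), which passed in 3 of the 10 fits that left out a heart. Its log2 fold change of 0.82 fell to 0.54 without Exercise heart 3, the highest at 6.29 CPM.

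Log2 fold changes were negative for 13 of the 14 glucocorticoid response genes, against 7716 of the 15454 genes tested. The median of the 14 was -0.33. Ddit4, an inhibitor of mTOR signalling, had 41.2 ± 13.9 CPM in Exercise and 76.9 ± 29.1 CPM in Sedentary (edgeR adjusted p = 0.0932) and passed in 2 of the 10 fits with a heart left out. Mt1, which encodes a metallothionein, fell by 0.32 on the log2 scale with no overlap of the groups (edgeR adjusted p = 0.0105), and it passed in all 10 such fits. Errfi1, Fkbp5 and Sult1a1 fell by 0.66, 0.50 and 0.42 (edgeR adjusted p = 0.0717, 0.0890 and 0.0772) and passed in 3, 1 and 4 of the 10. Cdkn1a, a cell cycle inhibitor, fell by 0.79 and passed in all 10.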
